A study of Mus musculus with 16 samples.

Results

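Genes that lie near Nr3c1 on mouse chromosome 18 were described in white and brown adipose tissue of control mice and of mice with an adipose-specific knockout of the receptor that Nr3c1 encodes. The 10 genes were Arhgap26, Fgf1, Yipf5, Kctd16, Spry4, Ndfip1, Gnpda1, Rnf14, Pcdh12 and Arap3. They were read as a check on effects around the targeted locus. A probe was counted as theirs when its transcript accession mapped to one of them in the RefSeq annotation of GRCm38.p6. This gave 15 of the 41174 probes on the arrays, for 10 of the 19096 genes that probes could be named for. Probes entered the tests when the scanner software's own flag put them well above background on 3 or more arrays of any one group of 4. That left 13 probes of 9 genes among 25107 tested features, which were 16677 named genes and 8430 probes without a gene name. Kctd16, an auxiliary subunit of GABA-B receptors, had 1 probe, which was well above background on 0 of the 16 arrays, so it was not tested.

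The arrays were one-colour Agilent whole mouse genome arrays of total RNA from female mice. White adipose tissue, abbreviated WAT, and brown adipose tissue, abbreviated BAT, were each taken from controls, described as wild-type in the series' design, and from mice lacking the glucocorticoid receptor (GR) in adipose tissue, with 4 arrays for each of the 4 groups. The design text calls them biological replicates but does not tie WAT and BAT samples to animals. The tests treat all samples as independent. Any sharing of animals between WAT and BAT is therefore not accounted for in comparisons between depots. The p-values set differences against the spread between these samples. The promoter that drove the deletion, the part of Nr3c1 that was removed, the strain, the age and the WAT depot are not given in the sources used here. Whether the controls carried a floxed allele is likewise not given. In whole tissue, fewer cells of a type and less RNA per cell cannot be told apart.

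GR is a nuclear receptor that binds glucocorticoids and regulates transcription in nearly all cell types, and in adipocytes it acts on differentiation and on lipid turnover. A modified allele is inherited together with the DNA around it, which is why neighbouring genes are commonly measured in knockout animals. Fgf1 is a secreted fibroblast growth factor and Spry4 a feedback inhibitor of receptor tyrosine kinase signals. Arhgap26 and Arap3 are GTPase-activating proteins. Pcdh12 is a protocadherin of vascular endothelium. Ndfip1 is a membrane adaptor that activates Nedd4-type ubiquitin ligases and Rnf14 is a RING-type ubiquitin ligase. Gnpda1 is a glucosamine-6-phosphate deaminase, and Yipf5 is a membrane protein of transport between endoplasmic reticulum and Golgi.

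In the gene order of that annotation, Fgf1 was the nearest measured named gene on one side of Nr3c1. Arhgap26, Spry4, Ndfip1, Gnpda1, Rnf14 and Pcdh12 followed it without a gap, at places 2 to 7, and Arap3 was at place 10. Yipf5 was at place 2 on the other side. The order counts measured named genes and says nothing of distance. The build of the array design differs from that of the annotation, so no coordinates are used.

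Levels are the log2 of the scanner's processed signal minus the 75th percentile of that array, and a level of 0 is the signal at that percentile. They compare samples for 1 probe, not probes with each other. The 75th percentile, over 4 arrays a group, was 853 ± 130 (SD) for WAT controls and 664 ± 119 for WAT knockouts. For BAT it was 534 ± 26.1 among controls and 400.4 ± 106 among knockouts. It was lowest in BAT knockouts 1 and 2, at 298 and 320.2. Between WAT knockouts 1 and 2 the signals varied within the noise of single spots, so their arrays were averaged and are called WAT knockout 1-2, and n = 3 in that group. Adipoq, the adipocyte hormone adiponectin, was 7.55 ± 0.27 in WAT controls and 7.31 ± 0.14 in BAT controls, and Ucp1, the uncoupling protein of brown fat, was -4.39 ± 0.91 and 8.39 ± 0.12 (SD, n = 4). All 4 groups were on every slide, always at the same position for a given group, and position and group cannot be told apart.

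Marker lists were read as the median, over a list's genes, of the log2 deviation from each gene's mean over the samples. The WAT knockouts were not alike: WAT knockouts 1-2 and 3 had adipocyte marker levels of -2.17 and -1.24 and WAT knockout 4 had 0.80, against -0.44 to 0.18 in WAT controls. B cell marker levels were 5.09 and 4.79 in WAT knockouts 1-2 and 3 and -1.22 in WAT knockout 4. Among WAT controls the B cell level ran from -0.47 to 3.71 and the level of intestinal epithelium markers from -1.68 to 7.19. Mesothelial marker levels were 4.65, 4.71, 3.45 and 4.00 in WAT controls and -1.16, 0.97 and 2.92 in WAT knockouts 1-2, 3 and 4. Macrophage marker levels were 0.95 to 1.67 in WAT controls and 0.15 to 0.38 in WAT knockouts, so for both lists every knockout lay below every control. In BAT, endothelial marker levels were -0.14 to 0.14 in controls, 1.14 and 0.87 in knockouts 1 and 2, and 0.18 and 0.13 in knockouts 3 and 4. Skeletal muscle marker levels were -1.06 to 3.09 in BAT controls and 2.62 to 5.30 in BAT knockouts. The part of these differences in the results was not tested, and values without the samples concerned are given beside the results that moved.

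The targeted gene gives the scale. In WAT, Nr3c1 was 1.93, 2.56, 2.0 and 2.25 in controls and 1.64, 1.36 and 1.58 in knockouts. In BAT it was 2.33, 2.40, 2.53 and 2.70 in controls and 1.30, 1.30, 1.45 and 1.76 in knockouts. For this probe, the one of highest mean level of 4, the highest knockout was under the lowest control in each depot. The difference was -0.66 ± 0.19 (SE) in WAT and -1.03 ± 0.18 in BAT on the log2 scale, and neither passed the limma test over all features (adjusted p = 0.210 and 0.0814). The BAT difference passed without BAT knockout 4 (-1.13, limma adjusted p = 0.0452) and without WAT knockout 4 (limma adjusted p = 0.0414). The WAT difference passed without WAT knockout 4 (-0.69 ± 0.21, limma adjusted p = 0.0223), with an SE no smaller than before. Without WAT knockout 4 the fit called 9235 features in WAT and 84 in BAT, where the fit of all samples called 15 and 4. The exact two-sided permutation test gave p = 0.0286 in each depot, the smallest it can give with these group sizes. The other 3 probes of Nr3c1 gave 0.24, -0.19 and -0.38 in WAT, where the groups overlapped for each of them. In BAT they gave -1.89, -0.40 and -1.08, and the groups overlapped for the second of them only. Among BAT knockouts, 1 of 4 arrays measured the first of them well above background. Where the probes lie relative to the deletion is not known, so the values are those of the probed sequences.

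**Figure D1:**
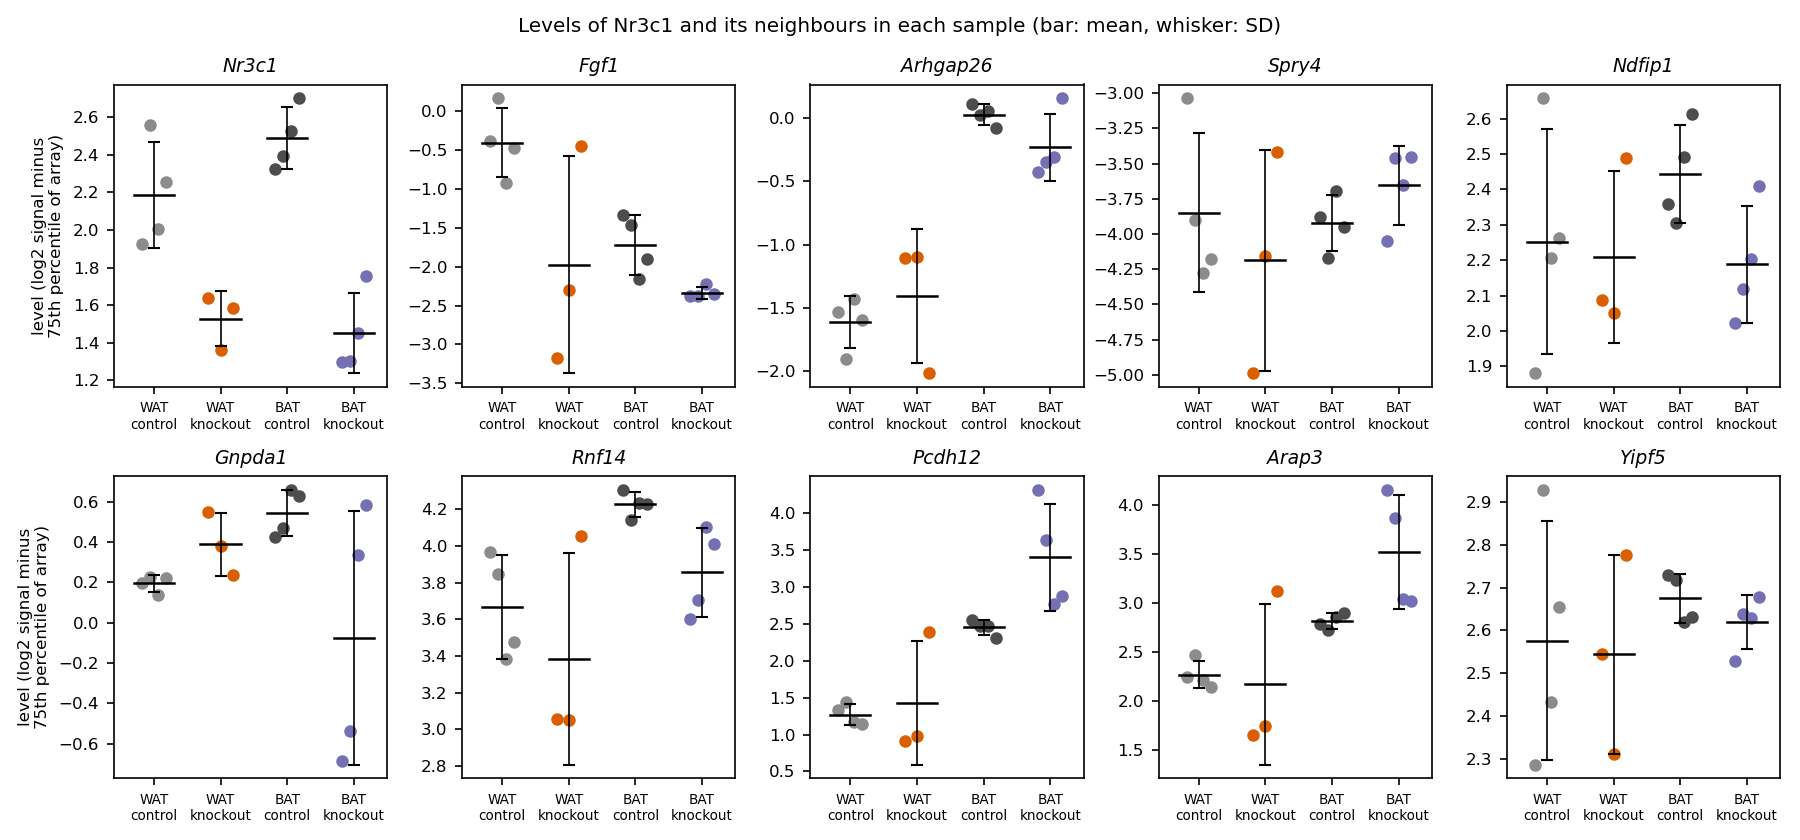
Level of Nr3c1 and of the 9 measured neighbours in each sample, as log2 signal minus the array's 75th percentile on the vertical axis of each panel, with the 4 groups side by side. Points are samples (4 a group, 3 for WAT knockout), the bar is the mean and the whisker the SD, and the axes differ between panels and do not start at 0. The Nr3c1 probe shown, 1 of 4, separates by genotype in both depots, and in WAT knockouts the sample of highest Fgf1, Rnf14, Pcdh12 and Arap3 lies apart from the other two.

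No neighbour passed the test between knockout and control in either depot. In WAT, 0 of the 9 measured neighbours were called by limma at an adjusted p under 0.05, as were 0.0597% of all features. At an unadjusted p under 0.05 there was 1 (Fgf1), against 17.9% of all features. In BAT, 0 of 9 were called, against 0.0159% of all features, and 3 had an unadjusted p under 0.05 (Gnpda1, Pcdh12 and Arap3), against 13.1%. The test of the difference between the depots' knockout effects called 0 of 9, against 0.00398% of all features, with 1 at an unadjusted p under 0.05 (Gnpda1), against 10.4%. Few features of any kind were called in these comparisons, so a count of 0 among 9 is what the background gives, and it does not show that the neighbours were equal.

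The median difference of the 9 neighbours was -0.04 in WAT and -0.25 in BAT, with 3 above and 6 below 0 in each depot. Of all features 66.5% were above 0 in WAT and 60.2% in BAT. Over all features the median difference was 0.24 in WAT and 0.10 in BAT, and relative to it the neighbours' medians were -0.29 and -0.35. Without BAT knockouts 1 and 2, a setting chosen after the data were seen, the neighbours' median in BAT was -0.08, beside -0.05 over all features. The single values ran from -1.57 to 0.21 in WAT and from -0.62 to 0.95 in BAT. Fgf1 was the lowest in WAT and Gnpda1 and Fgf1, both at -0.62, in BAT, while Pcdh12 and Arap3 were the highest in BAT.

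**Figure D2:**
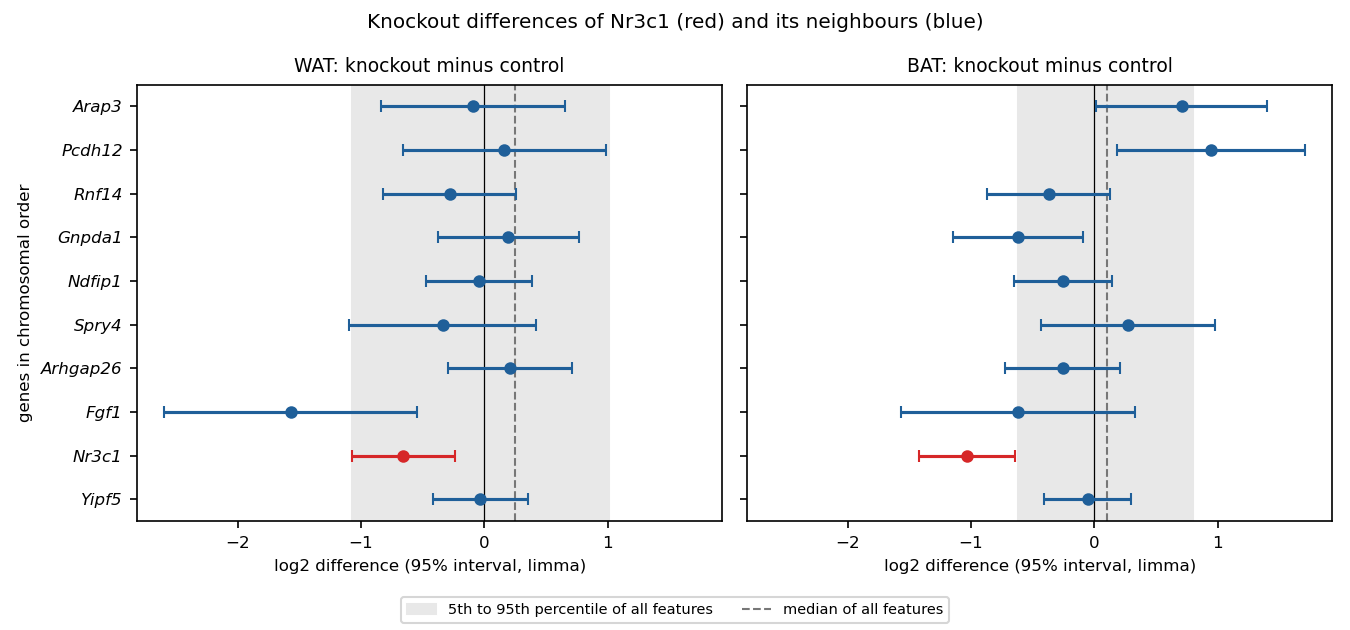
Log2 difference between knockout and control on the horizontal axis for Nr3c1 (red) and its 9 measured neighbours (blue) in chromosomal order from top to bottom, with WAT on the left and BAT on the right. Points are limma estimates, whiskers 95% intervals without adjustment for the number of features, the grey band spans the 5th to 95th percentile of all features and the dashed line is their median. In WAT the Fgf1 estimate of -1.57 lies below the band, and in BAT the Pcdh12 estimate of 0.95 lies above it.

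Fgf1 is the neighbour next to Nr3c1 in this order. Its level was -0.38, 0.17, -0.93 and -0.47 in WAT controls and -3.18, -2.30 and -0.44 in WAT knockouts 1-2, 3 and 4. WAT knockouts 1-2 and 3 lay below every control, while WAT knockout 4 lay within the control range, so the groups overlapped. The difference was -1.57 ± 0.48 (33.7% of the control level), with a limma adjusted p of 0.217 and an unadjusted p of 0.00555. It was -1.81 relative to the median of all features. The exact two-sided permutation p was 0.0857.

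The WAT difference of Fgf1 moved with 1 knockout sample. Without WAT knockout 4 it was -2.33 and passed (limma adjusted p = 0.000380). That fit called 9235 features in all, and 3 of the 9 neighbours: beside Fgf1 these were Rnf14 at -0.62 (adjusted p = 0.0287) and Arhgap26 at 0.51 (adjusted p = 0.0479). WAT knockout 4 alone, in a setting chosen after the data were seen, differed from the controls by -0.04, which restates that this sample lay within their range. The Fgf1 values above are of its probe of highest mean level. By the second Fgf1 probe, WAT controls ran from -3.22 to -1.95 and WAT knockouts 1-2, 3 and 4 were at -3.98, -2.50 and -2.63. By that probe WAT knockouts 3 and 4 both lay within the control range. Adipocyte marker genes were lower in the WAT knockouts for 15 of the 15 measured, with a median difference of -1.003 and 0 called by limma. Of all features 66.5% were higher in this comparison. Of the 7 measured mesothelial markers 7 were lower, with a median difference of -2.99 and 1 called by limma. The levels of that list had the same order of samples as Fgf1 within WAT controls and within WAT knockouts. The part of either list in the Fgf1 difference was not tested.

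In BAT, Fgf1 was -1.34, -1.47, -2.16 and -1.91 in controls and -2.38, -2.38, -2.23 and -2.35 in knockouts. Every knockout lay below every control, the nearest pair at -2.16 and -2.23. The difference of -0.62 ± 0.44 did not pass (limma adjusted p = 0.603), and its 95% interval ran from -1.57 to 0.33. Within the 4 slides, each with 1 knockout and 1 control array, it was -0.91, -0.22, -0.89 and -0.45. The second Fgf1 probe gave -0.39 ± 0.37 in WAT and 0.52 ± 0.34 in BAT, so in BAT the probes of this gene had opposite signs. The difference between the depots' knockout effects was 0.95 ± 0.65 (adjusted p = 0.631). Without WAT knockout 4 it was 1.72 and passed (limma adjusted p = 0.0159). That fit called 4055 features in this comparison, where the fit of all samples called 1.

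Among controls Fgf1 was lower in BAT than in WAT. The difference between BAT and WAT controls was -1.32 ± 0.44, or 40.2% of the WAT level, with a limma adjusted p of 0.0340, and the groups did not overlap. Both probes passed, the second at -1.03 ± 0.34 (limma adjusted p = 0.0296 over 33050 probes). In the same comparison the mesothelial markers had a median difference of -6.76, with 7 of 7 lower and called. The adipocyte markers had one of 0.27, with 10 of 15 higher, as were 56.3% of all features. The part of either list in this Fgf1 difference was not tested. The call of the first probe ended without any one of WAT controls 1, 2 or 4 or BAT controls 2, 3 or 4 (adjusted p 0.0513 to 0.0945), with the array median as scale (0.0589) and with quantile normalization (0.0576). In order of mean level, WAT controls were at -0.40, BAT controls at -1.72, WAT knockouts at -1.97 and BAT knockouts at -2.34. The WAT knockouts spanned the range of the BAT controls and the BAT knockouts, so those neighbours in the order did not separate. Between BAT and WAT knockouts the Fgf1 difference was -0.36 ± 0.48 (limma adjusted p = 0.629), and -0.12 ± 0.37 by the second probe. Without WAT knockout 4 the first probe gave 0.40.

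Other genes of FGF signalling were read from a list of 32 ligands, receptors, co-receptors, adaptors and feedback inhibitors, of which 29 were measured, Fgf1 and Spry4 among them. In the knockout comparisons 0 of 29 were called by limma in either depot, beside 0.0597% of all features in WAT and 0.0159% in BAT. At an unadjusted p under 0.05 there were 5 in WAT, beside 17.9% of all features, and 3 in BAT, beside 13.1%. The 3 of smallest p in WAT were Flrt2, a membrane protein that binds FGF receptors, at -2.05 (adjusted p = 0.191), the ligand Fgf18 at -1.82 (adjusted p = 0.212) and Fgf1. In BAT they were Flrt3, a relative of Flrt2, at 0.96 (adjusted p = 0.279), the ERK phosphatase Dusp6 at 0.69 (adjusted p = 0.208) and the exchange factor Sos1 at -0.40 (adjusted p = 0.309).

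Between the depots' controls, 7 of the 29 FGF genes passed, 2 higher and 5 lower in BAT, beside 33.4% of all features. Flrt3 at -4.37, Flrt2 at -3.39, Fgf18 at -2.54, the ligand Fgf10 at -1.63 and Fgf1 were lower in BAT. Sos1 at 0.78 was higher, as was Frs3, an adaptor of FGF receptors, at 0.58; it lay outside the naming rule and was added after its value was seen, to complete the count. In knockouts 6 passed, 3 each way, beside 30.6% of all features. Klb, the co-receptor for endocrine FGFs, was higher in BAT by 1.81, Spry1, another feedback inhibitor, by 1.08 and Dusp6 by 0.96. Flrt3 at -3.82, the transcription factor Etv5 at -1.55 and the adaptor Grb2 at -1.08 were lower. Etv5 was near the low end of measurement, with a mean of -4.39 in WAT knockouts and -5.94 in BAT knockouts. The latter lay below the level needed to be well above background on each BAT knockout array, so the size of its difference is uncertain.

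Spry4 was near the low end of measurement. Its kept probe was well above background on 15 of 16 arrays, and its other probe on 2 of 16. The level was -3.04, -3.90, -4.28 and -4.18 in WAT controls and -4.99, -4.15 and -3.42 in WAT knockouts. It was -3.88, -4.17, -3.69 and -3.95 in the controls of BAT and -4.05, -3.46, -3.65 and -3.45 in its knockouts. The groups overlapped in both depots. The difference was -0.34 ± 0.35 in WAT (adjusted p = 0.553), where it turned to 0.0062 with the normexp background correction, and 0.27 ± 0.33 in BAT (adjusted p = 0.805). Between depots no comparison of Spry4 passed (limma adjusted p = 0.892 in controls and 0.292 in knockouts).

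Pcdh12 and Arap3 had the highest differences of the neighbours in BAT. In BAT, Pcdh12 was 2.55, 2.47, 2.46 and 2.31 in controls and 4.31, 3.63, 2.76 and 2.88 in knockouts 1 to 4. Arap3 was 2.79, 2.72, 2.86 and 2.90 in those controls and 4.16, 3.87, 3.05 and 3.02 in those knockouts. For both genes every knockout lay above every control, and knockouts 1 and 2 stood well above knockouts 3 and 4. The difference was 0.95 ± 0.35 for Pcdh12 (1.93-fold, limma adjusted p = 0.285) and 0.71 ± 0.32 for Arap3 (1.63-fold, limma adjusted p = 0.369), so neither passed. These Pcdh12 values are of its probe of highest mean level. The second Pcdh12 probe, of lower level, gave 0.25 ± 0.44 in BAT and 0.54 ± 0.47 in WAT, and its groups overlapped in both depots.

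Knockouts 1 and 2 were also the BAT samples of highest endothelial marker level. All 17 endothelial markers had a higher mean in BAT knockouts than in controls, as did 60.2% of all features. Their median difference was 0.59, with 0 called by limma. Within slides, the Pcdh12 difference was 1.84 and 1.17 on the slides of knockouts 1 and 2 and 0.21 and 0.57 on the others. The Arap3 difference was 1.44 and 1.01 against 0.26 and 0.12. Without knockouts 1 and 2, a setting chosen after the data were seen, the differences were 0.37 for Pcdh12 and 0.21 for Arap3. The part of the endothelial markers in either difference was not tested.

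In WAT, Pcdh12 was 1.33, 1.43, 1.16 and 1.14 in controls and 0.91, 0.98 and 2.39 in knockouts. Arap3 was 2.24, 2.47, 2.22 and 2.15 in WAT controls and 1.65, 1.74 and 3.12 in WAT knockouts. For both genes knockouts 1-2 and 3 lay below every control and knockout 4 above every control. Endothelial marker levels had the same order: -0.42 to 0.01 in WAT controls, -1.04 and -0.92 in WAT knockouts 1-2 and 3 and 0.60 in WAT knockout 4. The mean differences were 0.16 ± 0.38 for Pcdh12 (adjusted p = 0.794) and -0.10 ± 0.35 for Arap3 (adjusted p = 0.867), and their signs turned with 1 knockout left out. Relative to the median of all features, Pcdh12 was at -0.08.

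**Figure D3:**
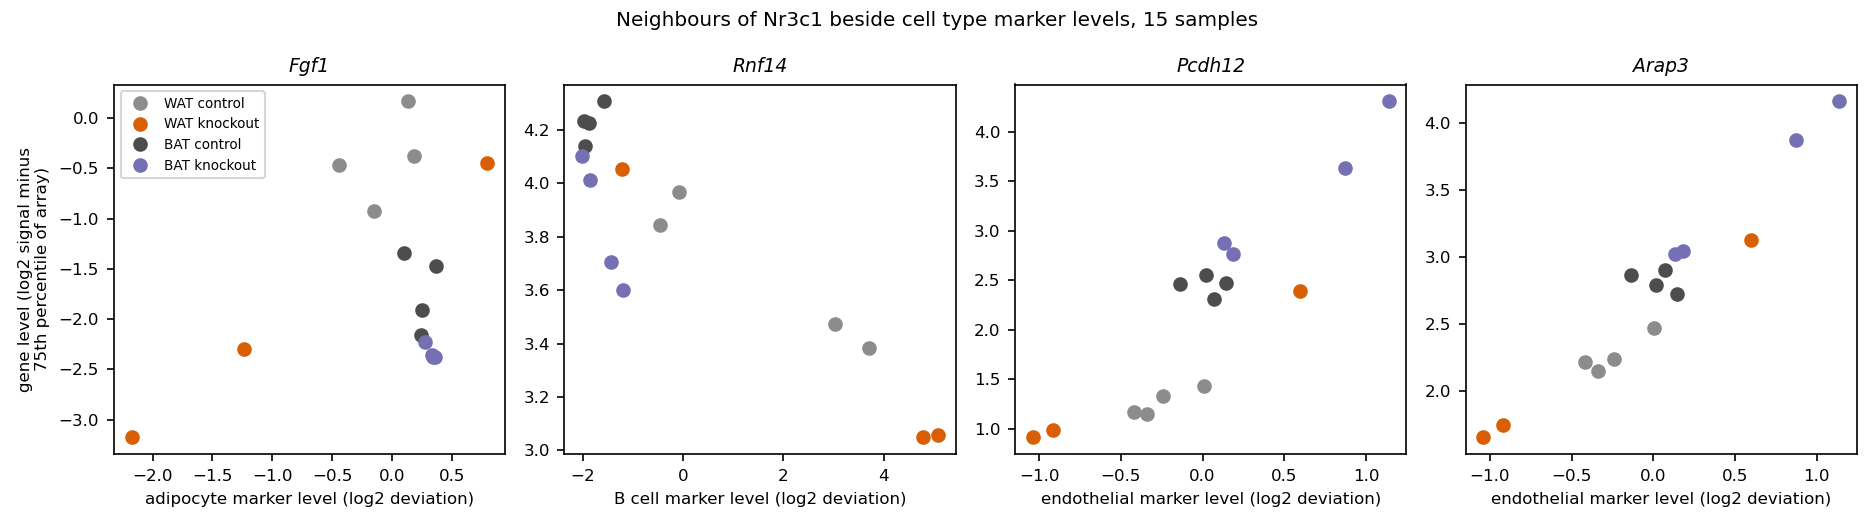
Level of 4 neighbours (vertical axes, log2 signal minus the array's 75th percentile) against the level of a cell type marker list in the same sample (horizontal axes, log2 deviation), with 1 point for each of the 15 samples coloured by group. Fgf1 is set against adipocyte markers, Rnf14 against B cell markers, and Pcdh12 and Arap3 against endothelial markers. BAT knockouts 1 and 2, with endothelial marker levels of 1.14 and 0.87, hold the highest Pcdh12 and Arap3 levels.

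Pcdh12 was higher in BAT than in WAT in both genotypes, and Arap3 in knockouts. Pcdh12 differed by 1.18 ± 0.35 in controls (2.26-fold, limma adjusted p = 0.0199) and by 1.97 ± 0.38 in knockouts (3.91-fold, limma adjusted p = 0.00189), with no overlap in either. The control call ended with the mean over the probes of the gene (0.88, adjusted p = 0.0618) and without WAT control 4 (1.14, adjusted p = 0.0515). The other Pcdh12 probe, whose levels were much nearer to background, gave 0.59 ± 0.44 in controls and 0.30 ± 0.47 in knockouts, in the same direction and past the threshold in neither. Arap3 was higher in BAT by 1.35 ± 0.35 in knockouts (2.55-fold, limma adjusted p = 0.00992), where the groups overlapped. This call ended without WAT knockout 1-2 (adjusted p = 0.0601) or 3 (adjusted p = 0.0602) and with a fit of those groups alone (adjusted p = 0.0967). In controls its difference of 0.55 ± 0.32 did not pass (adjusted p = 0.217), although the groups did not overlap.

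Arhgap26 had the smallest adjusted p of the neighbours between the depots' controls. Its level was -1.53, -1.90, -1.43 and -1.59 in WAT controls and -1.11, -1.09 and -2.01 in WAT knockouts. In BAT it was 0.11, 0.02, 0.05 and -0.08 in controls and -0.43, -0.34, -0.31 and 0.16 in knockouts. All 8 BAT samples lay above all 7 WAT samples. It was higher in BAT by 1.64 ± 0.22 in controls (3.12-fold, limma adjusted p = 7.12e-05) and by 1.17 ± 0.23 in knockouts (2.26-fold, limma adjusted p = 0.00221). The second probe passed in both comparisons as well, at 1.31 ± 0.22 and 1.06 ± 0.24. The knockout call ended with the normexp background correction (0.82, adjusted p = 0.0635) and with a fit of those groups alone (adjusted p = 0.0527).

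Between genotypes Arhgap26 overlapped in both depots. The difference was 0.21 ± 0.23 in WAT (adjusted p = 0.582) and -0.04 relative to the median of all features. It was -0.26 ± 0.22 in BAT (adjusted p = 0.676), with a sign that turned to 0.02 with the mean over both probes. The second probe gave 0.55 ± 0.24 in WAT (limma adjusted p = 0.270 over all probes), with every knockout above every control, and 0.30 ± 0.22 in BAT.

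Gnpda1 lay lower in part of the BAT knockouts. It was 0.43, 0.47, 0.66 and 0.63 in the controls and -0.68, -0.53, 0.34 and 0.58 in knockouts 1 to 4. Knockouts 1 and 2 stood below all other samples of the series, while knockout 4 lay within the control range. The difference was -0.62 ± 0.25 (limma adjusted p = 0.309, unadjusted p = 0.0253) and -0.08 without knockouts 1 and 2. Within slides it was -1.16, -1.19, -0.09 and -0.04.

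In WAT, Gnpda1 was 0.20, 0.23, 0.14 and 0.22 in controls and 0.55, 0.38 and 0.24 in knockouts. All knockouts lay above all controls, the nearest pair at 0.23 and 0.24. By the probe of highest mean level, Gnpda1 was the only one of the 9 neighbours without overlap in WAT. Over all features 7.7% had no overlap in either direction, and 6.47% had none with knockouts higher. The second probe of Arhgap26 had no overlap in WAT either. The Gnpda1 difference of 0.19 ± 0.27 did not pass (adjusted p = 0.648) and was -0.05 relative to the median of all features. The difference between the depots' effects was -0.81 ± 0.36 (limma adjusted p = 0.465). In controls Gnpda1 was 0.35 ± 0.25 higher in BAT without passing (adjusted p = 0.314).

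In BAT, Rnf14 was 4.31, 4.14, 4.23 and 4.23 in controls and 3.60, 3.71, 4.10 and 4.01 in knockouts. Every knockout lay below every control, with knockouts 1 and 2 lowest. The difference was -0.37 ± 0.23 (adjusted p = 0.533), and -0.17 without knockouts 1 and 2. With Rnf14, 4 of the 9 neighbours had no overlap between genotypes in BAT by the probe of highest mean level, against 18% of all features. Pcdh12 and Arap3 were higher in knockouts, as were 9.35% of all features, and Fgf1 and Rnf14 lower, as were 8.62%. By the second probes of Pcdh12 and Fgf1 the genotypes overlapped in BAT.

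In WAT, Rnf14 was 3.97, 3.84, 3.38 and 3.47 in controls and 3.06, 3.05 and 4.05 in knockouts. Knockouts 1-2 and 3 were the lowest samples and knockout 4 the highest. B cell marker levels were highest in WAT knockouts 1-2 and 3, followed by WAT controls 3 and 4 at 3.71 and 3.04, the controls of lowest Rnf14. T and NK cell marker levels were 4.27 and 3.98 in those knockouts, 3.17 and 2.42 in those controls and -1.09 in WAT knockout 4. Adipocyte marker levels within WAT were lowest in knockouts 1-2 and 3, then in controls 4 and 3 at -0.44 and -0.15. The part of these lists in the Rnf14 levels was not tested. The Rnf14 difference was -0.28 ± 0.25 (adjusted p = 0.494). Between depots it was 0.56 ± 0.23 in controls (adjusted p = 0.0804) and 0.47 ± 0.25 in knockouts (adjusted p = 0.183), higher in BAT and past the threshold in neither. Without WAT knockout 4 both passed, at 0.56 (adjusted p = 0.0139) and 0.80 (adjusted p = 0.00484). Over all features that fit called 10597 in controls and 11456 in knockouts, where the fit of all samples called 8381 and 7683.

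Ndfip1 and Yipf5 had the narrowest differences. Ndfip1 was 1.88, 2.66, 2.21 and 2.26 in WAT controls and 2.09, 2.05 and 2.49 in WAT knockouts. In BAT it was 2.36, 2.31, 2.49 and 2.61 in controls and 2.02, 2.12, 2.20 and 2.41 in knockouts. The groups overlapped in both depots. The difference was -0.04 ± 0.20 in WAT (95% interval -0.47 to 0.39) and -0.25 ± 0.19 in BAT (95% interval -0.65 to 0.15), with limma adjusted p-values of 0.897 and 0.612.

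Yipf5 was 2.29, 2.93, 2.43 and 2.66 in WAT controls and 2.54, 2.31 and 2.78 in WAT knockouts. In BAT it was 2.73, 2.72, 2.62 and 2.63 in controls and 2.53, 2.64, 2.63 and 2.68 in knockouts. The difference was -0.03 ± 0.18 in WAT (95% interval -0.42 to 0.35) and -0.06 ± 0.17 in BAT (95% interval -0.41 to 0.30), and the groups overlapped. Differences smaller than these intervals could not be seen with this number of arrays.

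The second Yipf5 probe differed from the first in BAT. It ran from 0.98 to 1.21 in BAT controls and from 0.12 to 0.78 in BAT knockouts, without overlap. Its difference was -0.67 ± 0.21 (limma adjusted p = 0.180 over 33050 probes). In WAT it was -0.08 ± 0.23. In controls it was higher in BAT than in WAT by 0.60 ± 0.21 (limma adjusted p = 0.0423), where the first probe gave 0.10 ± 0.17. Of the 4 genes with 2 kept probes, the signs of the knockout difference were the same for 4 in WAT and for 2 in BAT, where Arhgap26 and Fgf1 differed. Of the 13 probes, 0 were called between genotypes in either depot (limma), beside 0.0424% of all probes in WAT and 0.0182% in BAT.

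**Figure D4:**
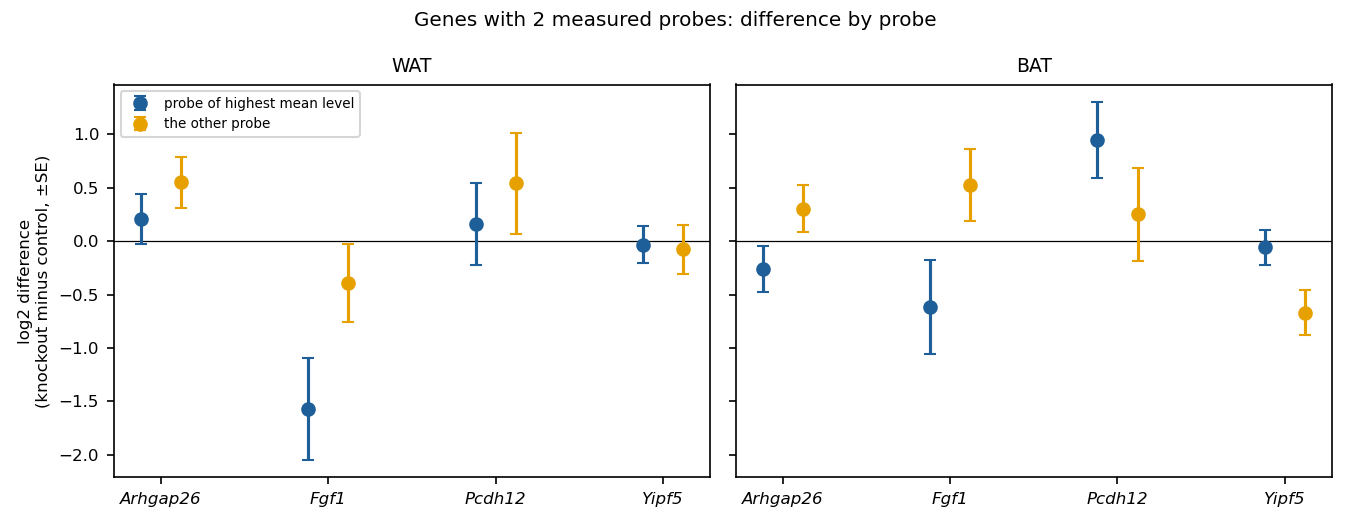
Log2 difference between knockout and control, with the SE as whisker, for each of the 2 kept probes of Arhgap26, Fgf1, Pcdh12 and Yipf5, in WAT on the left and BAT on the right. Blue is the probe of highest mean level, on which the gene values rest, and orange the other. In BAT the probes of Fgf1 lie at -0.62 and 0.52.

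Between depots, 3 of the 9 neighbours passed in controls, against 33.4% of all features: Arhgap26 and Pcdh12 were higher in BAT, as were 19.1% of all features, and Fgf1 lower, as were 14.3%. In knockouts 3 passed, against 30.6%: Arhgap26, Pcdh12 and Arap3, all higher in BAT, as were 16.7% of all features. Without overlap between depots were 6 of 9 in controls, against 43.3% of all features, and 2 of 9 in knockouts, against 25.5%. The counts of calls moved with single samples. In controls 1 neighbour was called without WAT control 4, and in knockouts 5 without WAT knockout 4. Over all features these fits called 6622 and 11456, where the fit of all samples called 8381 in controls and 7683 in knockouts. By probe, 6 of 13 passed in controls, against 34.3% of all probes, and 4 of 13 in knockouts, against 29.8%.

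A wider stretch was read as the 40 measured named genes on each side of Nr3c1, of which 71 were not among the neighbours above. Of these 71, 0 were called by limma between genotypes in either depot, beside 0.0597% of all features in WAT and 0.0159% in BAT. At an unadjusted p under 0.05 there were 10 in WAT, beside 17.9% of all features, and 13 in BAT, beside 13.1%. Their median difference was 0.10 in WAT and 0.01 in BAT. Groups did not overlap for 3 of 71 in WAT, beside 7.7% of all features, and for 10 of 71 in BAT, beside 18%. The 3 genes of smallest p in WAT were the mitochondrial carrier Slc25a2 at 1.03 (adjusted p = 0.209) and the clustered protocadherins Pcdhb3 at -1.09 (adjusted p = 0.236) and Pcdhb22 at -0.87 (adjusted p = 0.241). In BAT they were the translation initiation factor genes Eif1a at -1.24 ± 0.21 (adjusted p = 0.0814) and Eif3j2 at 1.02 (adjusted p = 0.192), and Pcdhb3 at -1.25 (adjusted p = 0.194). Pcdhb3 was near the low end of measurement, with a mean of -4.34 in BAT controls and -5.59 in BAT knockouts. The latter lay below the level needed to be well above background on each array of that group. Slc25a2 was low as well, at -5.16 in WAT controls and -4.13 in WAT knockouts.

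Eif1a was the nearest to the threshold among these 71 in BAT and had the same adjusted p as Nr3c1 in BAT. Its mean in BAT was 1.84 in controls and 0.60 in knockouts, and these groups did not overlap. Eif1a, Eif3j2 and the Pcdhb genes have close copies elsewhere in the genome or beside them, and a probe may read more than 1 of these. Over the 408 measured genes of chromosome 18, 0 were called between genotypes in either depot, with 64 at an unadjusted p under 0.05 in WAT, beside 17.9% of all features, and 68 in BAT, beside 13.1%. Their median difference was 0.13 in WAT and -0.02 in BAT. Groups did not overlap for 33 of the 408 in WAT (8.09%), beside 7.7% of all features. In BAT they did not overlap for 106 of the 408 (26.0%), beside 18% of all features. Of these, 43 were higher in knockouts, beside 9.35% of all features, and 63 lower, beside 8.62%. The source of the larger share in BAT was not tested.

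**Figure D5:**
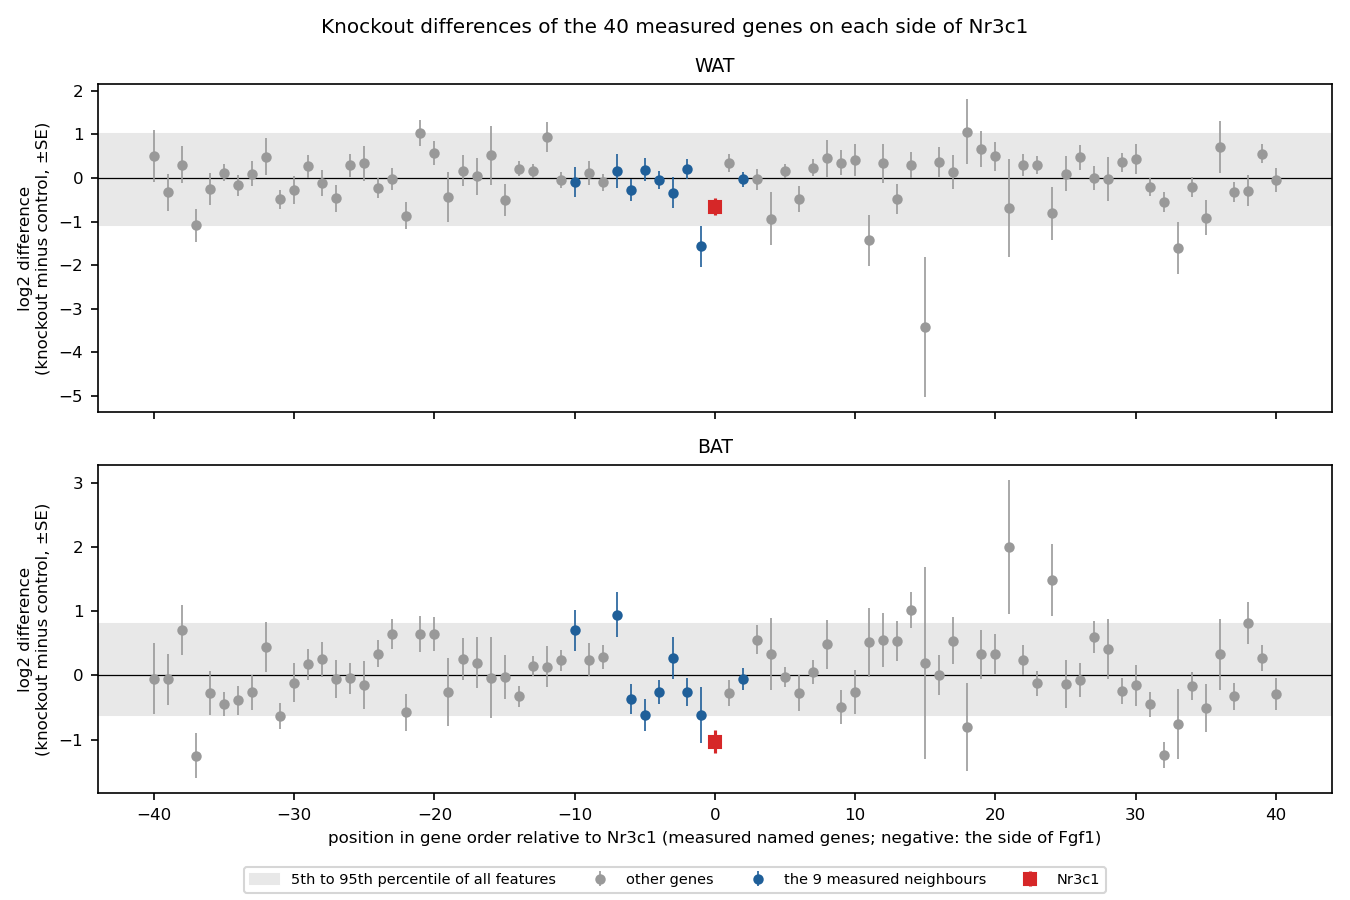
Log2 difference between knockout and control (vertical axis, whisker SE) for the 40 measured named genes on each side of Nr3c1, placed by their rank in the gene order from Nr3c1 at 0 (horizontal axis; negative ranks are on the side of Fgf1), with WAT above and BAT below. Nr3c1 is red, the 9 neighbours blue, other genes grey, and the band spans the 5th to 95th percentile of all features. In BAT, Nr3c1 at -1.03 lies below the band, as do several grey genes. The lowest of them are Pcdhb3 at -1.25, a gene near the low end of measurement, and Eif1a at -1.24.

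The genes whose level followed each neighbour most closely over the 15 samples were ranked by Pearson's r, as a description: the samples fall into depots and share their arrays, and no p is given. For Pcdh12 they were Cdh5 (r = 0.989), Myo10 (0.983) and Polr2i (0.982), and for Arap3 Tie1 (r = 0.992), 2810025M15Rik (0.992) and Slc9a3r2 (0.987). Cdh5, the cadherin of endothelial junctions, and Tie1, an endothelial receptor tyrosine kinase, are on the endothelial marker list. For Fgf1 they were Trabd2b (r = 0.974), the growth factor gene Pdgfc (0.970) and the thyrotropin receptor gene Tshr (0.969). For Arhgap26 they were Acss1, a mitochondrial acetyl-CoA synthetase (r = 0.989), Mrpl19 (0.981) and Kctd1 (0.979). For Rnf14 they were Pter (r = 0.980), Vti1b (0.978) and Yap1 (0.977), and for Gnpda1 Mphosph8 (r = 0.954), Avl9 (0.953) and Zcchc9 (0.952).

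The closest correlations were lower for the remaining neighbours. For Ndfip1 the closest were Rhoa (r = 0.902), Mtmr6 (0.893) and Fbxl5 (0.885), and for Yipf5 Mtmr6 (r = 0.881), Tpp1 (0.866) and Vps26b (0.843). For Spry4 they were 1700088E04Rik (r = 0.858), Glt28d2 (0.855) and Ptpru (0.852). Nr3c1 was among the 3 closest genes of none of the 9 neighbours. The 3 closest came from 16677 named genes, so this says little of how closely Nr3c1 followed them. Its own r with the neighbours ran from -0.29 (Pcdh12) to 0.67 (Ndfip1). For deviations from the group means, r ran from -0.21 (Pcdh12) to 0.85 (Ndfip1).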

How the data were processed

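RNA of 16 samples was measured, 1 array each. Images were extracted with Agilent Feature Extraction 12.0.0.7, per the file headers. Per these headers, the software subtracted background and a spatial trend from each array to give the deposited processed signal, an intensity with no scaling across arrays. Median signal and median background, as deposited, are unprocessed intensity readings. The authors' deposited values table holds the same intensity as the processed signal, averaged over spots with a relative tolerance of 1e-04. The authors' deposited flag columns hold 0 or 1 for a spot.

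Non-uniform and outlier spots were dropped and repeated spots averaged. Scaling by the 75th percentile, the filter and the naming of probes are given with the results. The probe of highest mean level stood for a gene. Of 41174 probes, 28223 were named. In R 4.3.3 (package data.table, version 1.17.8), limma 3.58.1 with empirical Bayes moderation fitted 4 group means to 15 samples, with two-sided tests, p-values adjusted by Benjamini-Hochberg across the features of each comparison, and a threshold of 0.05. The procedure was tested on simulated data.

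The 2 averaged WAT knockout arrays had a log2 difference with an SD of 0.0831, against 0.0869 from spot noise; the lowest SD of the other 119 pairs was 0.168. The normexp alternative (offset 50) used the median signal, since the files used here hold no mean signal column. Same-numbered samples did not pair (correlation of deviations -0.47 to 0.18). Members, lists and alternatives were chosen with earlier results of these data known. Named were all members and Nr3c1; in the wider stretch and the FGF list, genes past the threshold (up to 5 each way and up to 6) or else the 3 of smallest p; and the 3 genes most alike each member. Sequences of the genes are not reported here. The number of arrays limits the precision.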

Additional observations from a re-analysis of the deposited data

How the results depend on the processing

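For the members called, 0 of 9 in BAT held in every alternative run. In WAT and in the interaction 0 held in every alternative except without WAT knockout 4, where 3 and 3 were called (leave-one-out ranges 0 to 3 and 0 to 3). Over all features that fit called 9235 in WAT and 4055 in the interaction, where the main fit called 15 and 1. In that interaction the 3 members were Fgf1 at 1.72, Arap3 at 1.28 (adjusted p = 0.0331) and Arhgap26 at -0.77 (adjusted p = 0.0476). Between depots in controls 3 members became 6 with only the groups compared in the fit (adding Arap3, Gnpda1 and Rnf14), and ranged from 1 to 4 with a sample left out. In knockouts 3 became 1 and ranged from 2 to 5. Over all features the fits of only the groups compared called 10774 in controls and 2990 in knockouts, where the main fit called 8381 and 7683. With slide as a block the counts were 0, 0, 0, 3 and 3. With the replicate number as a block they were 0, 0, 0, 2 and 3 (Fgf1 in controls at an adjusted p of 0.0522), and the numbers pair no samples. The median difference of members in BAT was -0.25, beside 0.10 over all features. It became -0.40 beside -0.043 with the array median as scale and -0.046 beside 0.088 with the mean over probes. With normexp it was -0.15 beside 0.34, and with quantile normalization -0.19 beside 0.033. Without BAT knockouts 1 and 2 it was -0.084 beside -0.052. With a sample left out the members' median in BAT ranged from -0.33 to -0.19. In WAT the members' median was -0.04, beside 0.24 over all features, and -0.32 beside 0.27 without WAT knockout 4. It became 0.24 without WAT knockouts 1-2 and 3, a setting chosen after the data were seen that left only WAT knockout 4. No median over all features is given for that setting, so a shift relative to it cannot be read. With a sample left out the members' median in WAT ranged from -0.32 to 0.086. For Nr3c1 the BAT difference passed with WAT knockouts 1 and 2 counted as 2 samples (-1.03, adjusted p = 0.0490), without BAT knockout 4 (adjusted p = 0.0452) and without WAT knockout 4 (adjusted p = 0.0414); it ranged from -1.13 to -0.96 with a sample left out, and the WAT difference from -0.74 to -0.53, passing without WAT knockout 4 (adjusted p = 0.0223). The causes were not tested.

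Signs turned only for differences that had not passed. In BAT knockouts, Arhgap26 was 0.023 with the mean over probes. In WAT knockouts, Spry4 was 0.0062 with normexp, and without WAT knockouts 1-2 and 3 Arap3 was 0.85, Arhgap26 -0.40, Ndfip1 0.24, Rnf14 0.38, Spry4 0.43 and Yipf5 0.20. Between depots, quantile normalization gave Ndfip1 -0.13 and Yipf5 -0.24 in controls, Yipf5 -0.22 in knockouts and 0.013 in the interaction. The array median gave Spry4 0.076 in controls and Ndfip1 0.13 in knockouts, where Ndfip1 was also 0.0047 with the replicate block and 0.011 with both arrays counted. With a sample left out, WAT knockout differences ranged from -0.57 to 0.16 (Arap3), -0.32 to 0.42 (Pcdh12), -0.72 to 0.061 (Spry4), -0.18 to 0.092 (Ndfip1) and -0.15 to 0.086 (Yipf5). Interactions ranged from -0.26 to 0.24 (Rnf14) and -0.14 to 0.092 (Yipf5). Depot differences ranged from -0.22 to 0.20 in controls (Spry4), and in knockouts from -0.97 to 0.40 (Fgf1), -0.10 to 0.12 (Ndfip1) and -0.041 to 0.19 (Yipf5).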
